A study of Danio rerio with 9 samples.

Results

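The genes socs3a, socs3b, socs1a and stat3 of the zebrafish belong to the JAK-STAT signalling pathway, and 10 of the 43603 probes on the arrays carry them. The probes are those whose RefSeq accession in the array files belongs to one of the 4 genes: 1 probe for socs3a, 4 for socs3b, 2 for socs1a and 3 for stat3. The array files name 12900 genes in this way. The 4 genes were selected on earlier results of these data, namely their higher signal in larvae given tacrine and neomycin than in the other groups. Their values in the comparisons with that group are therefore given as a description, without p-values.

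Cytokines of the interleukin 6 family and the hormone leptin bind receptors at the cell surface, and the JAK kinases held by these receptors then phosphorylate STAT proteins, which enter the nucleus and switch on genes. STAT3 is the STAT most used by these receptors. Among the genes that STATs switch on are those of the suppressors of cytokine signalling: SOCS3 binds the receptor and its JAK, SOCS1 binds the JAK, and both shut the signal off, so that their transcripts are widely used as a readout of recent cytokine signalling. In zebrafish, stat3 and socs3a are also known from work on the regeneration of hair cells, the sensory cells of the ear and the lateral line that neomycin kills.

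RNA was taken from whole bodies of larvae at 5 days post fertilization, with 3 samples per group from independent experiments, and each sample was hybridised to 1 single-colour array. One group was exposed to 50 µM tacrine, which blocks acetylcholinesterase, for 1 h and to 200 µM of the aminoglycoside antibiotic neomycin for the following 1 h. The second group was given 200 µM neomycin alone for 1 h after a pretreatment without tacrine. The control group received neither compound. The labels state 1% DMSO in the pretreatment of larvae without tacrine and give no DMSO level for larvae with it, so a difference in DMSO cannot be told apart from tacrine. No group received tacrine alone, and strain and number of larvae per sample are not given in the sources used here. Since whole larvae were used, more cells that express a gene and more RNA per cell cannot be told apart.

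Each level below is the log2 processed signal minus the log2 of the 75th percentile of the same array, so that 0 is the brightness of that percentile. Levels can be compared between arrays for 1 probe, but not between probes. Before scaling, the 75th percentile lay between 151 and 226 signal units on arrays of both compounds, between 142 and 170 with neomycin and between 105 and 137 in controls, so array brightness differed with the group. Between 65.6% and 73.8% of probes were well above background per array and no probe was saturated. Each of 3 slides carried 1 array per group, always in the same place on the slide, so place and group cannot be told apart. Probes had to be well above background on 3 or more of the 9 arrays to be tested, and all 10 were among the 31672 that passed. Each of the 10 passed this mark on 2 or 3 of the control arrays, so none entered only through the group with both compounds. Markers of 11 tissues and cell types, among them muscle, liver, neurons, hair cells and leukocytes, were measured in the RNA (37 of 46 markers tested), so the RNA held transcripts of many tissues.

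All 4 genes were highest in larvae given both compounds. On all 10 probes the 3 arrays of both compounds lay wholly above the 3 of neomycin, whereas 12% of all tested probes did so. The same 10 probes lay wholly above the 3 control arrays, against 12.4% of all tested probes. By the model fitted to all probes, all 10 were called higher than with neomycin, where 1.8% of all tested probes were called higher, and all 10 were called higher than in controls, where 3.17% of all tested probes were. Because these contrasts served to pick the genes, nothing further is read from those counts. The median log2 difference of the 10 probes was 1.70 against neomycin and 2.33 against control, beside medians of -0.02 and -0.05 over all tested probes. Ranked by log2 difference among the 31672 probes, the 10 took places 57 to 761 against neomycin and 11 to 628 against control. All 30 slide values in each comparison were positive, which follows from the arrays of both compounds lying wholly above the others and adds nothing to it. Without the first array of both compounds, 5 of the 10 probes, those of socs3a and socs3b, passed against neomycin. With another background correction, a normal-exponential model of the spot and local background signals, 1 of the 10 passed against neomycin and 3 against control.

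**Figure D1:**
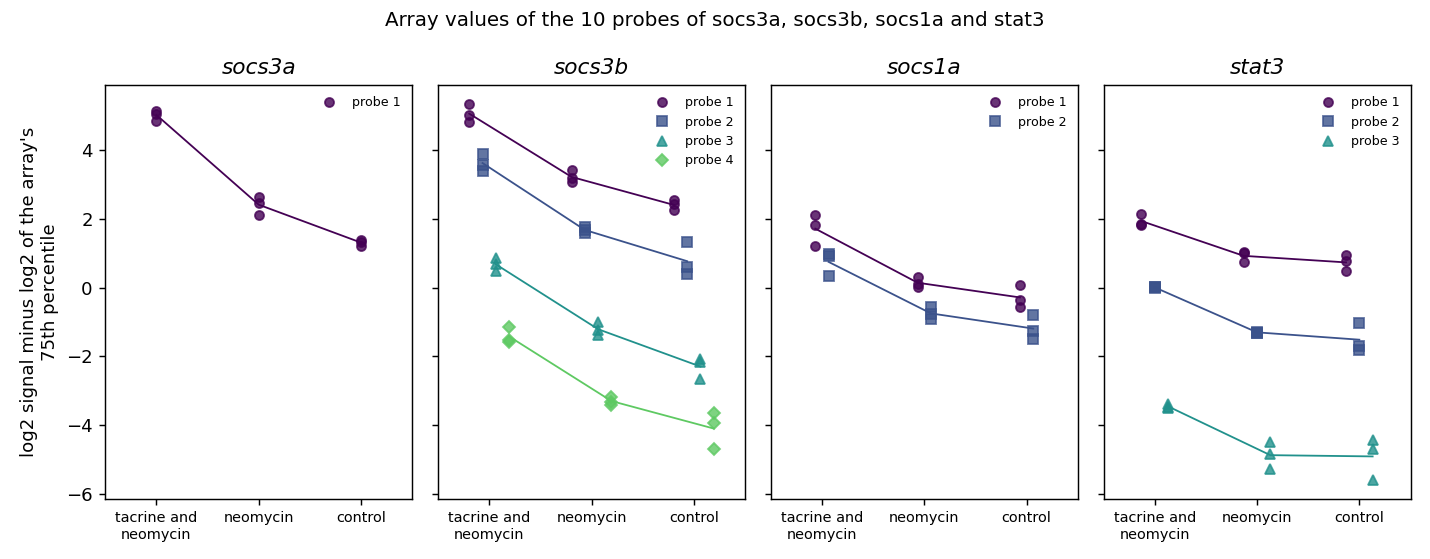
Level of each of the 10 probes on each of the 9 arrays (log2 signal minus log2 of the array's 75th percentile), in columns for both compounds, neomycin and control, with 1 panel per gene. Points are arrays and lines join group means; every probe is highest with both compounds, and socs3a and socs3b also stand higher with neomycin than in control. Probes of 1 gene differ in brightness, which carries no meaning for the amount of RNA.

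The largest difference belonged to socs3a, whose protein is a brake on receptors of the interleukin 6 and leptin kind. Its probe had levels of 5.14, 4.85 and 5.05 with both compounds, 2.65, 2.47 and 2.11 with neomycin, and 1.31, 1.40 and 1.21 in controls. The 3 groups did not overlap, and the gap between the lowest array of one group and the highest of the next exceeded the range within any of them. In processed signal, before scaling, these were 7980, 4366 and 5780 with both compounds, 1066, 789 and 704 with neomycin and 286, 276 and 316 in controls. The log2 difference was 2.61 ± 0.17 (SE) between both compounds and neomycin, a fold of 6.10, and 3.71 ± 0.17 between both compounds and control, a fold of 13.1. Slide by slide, both compounds exceeded neomycin by 2.50, 2.38 and 2.95 and control by 3.83, 3.45 and 3.84.

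The second zebrafish copy of SOCS3, socs3b, was measured by 4 probes. The brightest had levels of 5.02, 4.81 and 5.34 with both compounds, 3.41, 3.06 and 3.17 with neomycin, and 2.24, 2.55 and 2.42 in controls. The 3 groups were again separate on this probe, and they were separate on each of the other 3 probes as well. On the brightest probe the log2 difference was 1.84 ± 0.18 (SE) between both compounds and neomycin, a fold of 3.58, and 2.65 ± 0.18 between both compounds and control, a fold of 6.29. Across the 4 probes it ran from 1.84 to 1.94 against neomycin and from 2.65 to 2.97 against control. The 4 probes thus gave nearly the same difference although their mean levels with both compounds ranged from -1.42 to 5.05. The dimmest of them was well above background on 2 of the 3 control arrays, with levels of -1.59, -1.53 and -1.14 with both compounds, -3.31, -3.17 and -3.41 with neomycin, and -4.70, -3.65 and -3.93 in controls. With the normal-exponential background correction, its difference between both compounds and control was 0.04, while that of the brightest probe was 3.26.

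The transcript of socs1a, which encodes a brake that acts on the JAK kinases directly and in mammals restrains interferon signals in particular, was measured by 2 probes. The brighter had levels of 2.11, 1.21 and 1.82 with both compounds, 0.30, 0.10 and 0.02 with neomycin, and 0.06, -0.37 and -0.55 in controls. Arrays of both compounds were the highest, and neomycin and control arrays overlapped, since the first control array exceeded the third neomycin array. Between both compounds and neomycin the log2 difference was 1.57 ± 0.25 (SE), a fold of 2.97, and between both compounds and control it was 2.00 ± 0.25, a fold of 3.99. The second array of both compounds was the lowest of its group on both probes, at 1.21 and 0.34, so the difference from neomycin was 1.12 on the second slide and 1.80 and 1.79 on the others. The dimmer probe gave 1.50 ± 0.23 against neomycin and 1.94 ± 0.23 against control. Over the 9 arrays the 2 probes ran almost in parallel, with a root mean square difference of 0.08 after each was centred on its own mean.

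The transcript of stat3, the transcription factor of the pathway and itself a target of STAT3 in mammals, showed the smallest difference of the 4 genes. Its brightest probe had levels of 2.15, 1.81 and 1.84 with both compounds, 1.03, 0.99 and 0.74 with neomycin, and 0.48, 0.94 and 0.77 in controls. Arrays of both compounds stood apart, and the neomycin and control arrays overlapped. The log2 difference between both compounds and neomycin was 1.01 ± 0.17 (SE), a fold of 2.02, and between both compounds and control 1.20 ± 0.17, a fold of 2.30. The second probe had levels of 0.01, -0.01 and 0.01 with both compounds, -1.31, -1.28 and -1.32 with neomycin, and -1.81, -1.04 and -1.69 in controls, so that its spread was larger in controls than in either treated group. It gave 1.31 ± 0.19 against neomycin and 1.52 ± 0.19 against control. The third probe was dim, with levels of -3.38, -3.48 and -3.50 with both compounds, -4.85, -5.27 and -4.49 with neomycin, and -4.69, -5.59 and -4.44 in controls. It was well above background on 2 of 3 arrays in neomycin and in control. Its difference between both compounds and control, 1.45 ± 0.30, turned to -0.65 with the normal-exponential background correction, under which the median of all probes was -0.41. The brightest stat3 probe and the brighter socs1a probe each missed the threshold against neomycin in 4 of the 9 fits that left out 1 array, namely without the second or the third neomycin array and without the first or the third array of both compounds. The third stat3 probe missed it in 7 of these 9 fits, and against control in 3 of 9. Against neomycin this probe also missed it without the probe filter, after quantile normalization and with the normal-exponential background correction.

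**Figure D2:**
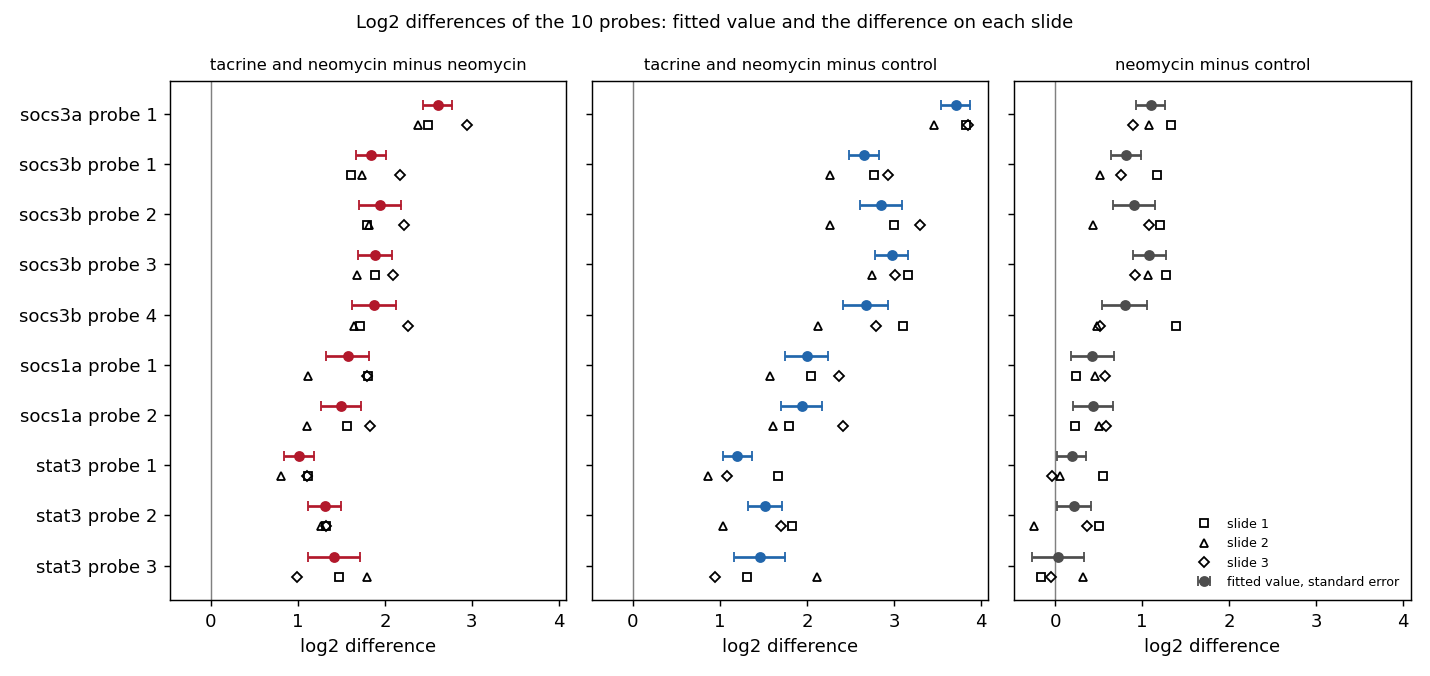
Log2 differences of the 10 probes in the 3 comparisons. Filled circles with bars are fitted values with their standard errors, and open symbols are the differences on slides 1, 2 and 3. In both comparisons with larvae given both compounds all 30 slide values lie above 0, as they must where arrays do not overlap. In neomycin minus control 26 of 30 do.

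The comparison of neomycin with control asks whether neomycin alone was enough to move these genes; it was not used to pick them, but it shares the neomycin and control arrays with the comparisons that were. None of the 10 probes was called, where 0.0852% of all tested probes were called higher, by limma with Benjamini-Hochberg adjustment over all tested probes, and 5 of the 10 had an unadjusted p under 0.05, where 9.03% of all tested probes had one in either direction. On 5 probes, those of socs3a and socs3b, the 3 neomycin arrays lay wholly above the 3 control arrays, beside 5.78% of all tested probes. These were the same 5 probes that had an unadjusted p under 0.05. Of them 4 measure the transcript of socs3b, so the 5 do not count as separate members beside these shares. For socs3a the log2 difference was 1.102 ± 0.17 (SE; 95% interval 0.72 to 1.48), a fold of 2.15, with a limma adjusted p of 0.0597. Slide by slide it was 1.33, 1.07 and 0.90. The adjusted p was 0.0400 without the third neomycin array, 0.0491 after quantile normalization, 0.0313 when only probes well above background on all 9 arrays were kept, 0.0201 with an intensity trend in the variance and 0.0876 with the slide as a block, and it ranged from 0.0201 to 0.219 over all alternatives run. The probe of socs3a did not pass in 16 of the 20 alternatives run. Its call in larvae given neomycin alone therefore lay near the threshold, but failed in the main analysis and in most alternatives.

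For socs3b the 4 probes gave log2 differences between neomycin and control of 0.81 ± 0.18, 0.91 ± 0.24, 1.08 ± 0.19 and 0.80 ± 0.26 (SE, from the brightest to the dimmest), with limma adjusted p of 0.173, 0.268, 0.102 and 0.36. None passed, although on each of the 4 the neomycin arrays lay wholly above the control arrays, so that every slide difference was positive. For socs1a the difference was 0.43 ± 0.25 on the brighter probe (95% interval -0.13 to 0.98, limma adjusted p = 0.691) and 0.44 ± 0.23 on the dimmer one (limma adjusted p = 0.649). For stat3 it was 0.19 ± 0.17 on the brightest probe (95% interval -0.19 to 0.57, limma adjusted p = 0.842), 0.21 ± 0.19 on the second (limma adjusted p = 0.848) and 0.04 ± 0.30 on the third (limma adjusted p = 0.991). The 3 slides gave 0.55, 0.05 and -0.03 for the brightest stat3 probe. These intervals leave room for a log2 difference of up to 0.98 in socs1a and, on the 3 probes of stat3, up to 0.57, 0.65 and 0.71, so the arrays do not show that either gene was level. All 10 differences between neomycin and control were above 0, but with the normal-exponential background correction 5 of them were below 0 and 8 were above the median of all probes, which then was -0.35.

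**Figure D3:**
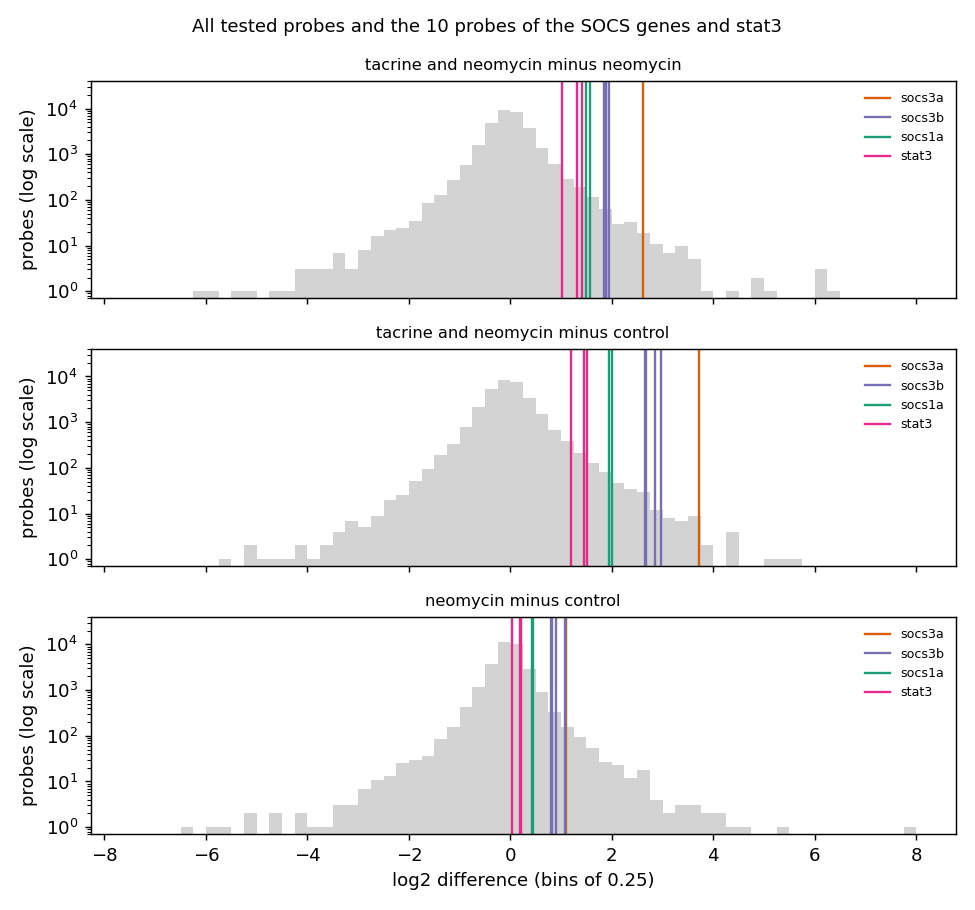
Histogram of the log2 differences of all 31672 tested probes in bins of 0.25 (number of probes on a log scale), with a vertical line for each of the 10 probes. The lines of all 4 genes stand in the right tail in both comparisons with larvae given both compounds, and in neomycin minus control those of stat3 lie near the centre, with those of socs1a, socs3b and socs3a further right.

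The log2 difference between neomycin and control was also set against the log2 difference between both compounds and control. It amounted to 29.7% of it for socs3a and to 29.9% to 36.5% on the 4 probes of socs3b. It amounted to 21.4% and 22.7% on the 2 probes of socs1a and to 2.49% to 15.9% on the 3 of stat3. Whether these shares differ between genes was not tested. On the brightest probes, the order of the difference between both compounds and control was socs3a, socs3b, socs1a, stat3, and it was the same on each of the 3 slides. The values in that order were 3.71 ± 0.17, 2.65 ± 0.18, 2.00 ± 0.25 and 1.20 ± 0.17 (SE), and the steps between neighbours were not tested. Probes of 1 gene differed too, from 2.65 to 2.97 in socs3b and from 1.20 to 1.52 in stat3. Probes of 1 gene followed each other over the 9 arrays more closely than probes of different genes in socs1a and socs3b: the root mean square difference was 0.08 within socs1a and 0.17 to 0.26 within socs3b, whereas socs3a and the brightest socs3b probe differed by 0.48. In stat3 it was 0.22 between the first and second probes and 0.48 and 0.52 against the dimmest one.

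For each gene, the 5 genes with the most similar pattern were taken and those reported here are named, by the root mean square difference over the 9 arrays between centred log2 levels on the brightest probes of 10373 candidates. Only genes well above background on all 9 arrays were candidates, so lepa and lepb were not among them. Nearest to socs3a was jdp2b, a bZIP transcription factor, at 0.29. Also among its 5 were odc1, an enzyme of polyamine synthesis, at 0.46, mmp9, a matrix metalloprotease, at 0.48 and acsl4b, a fatty acid CoA ligase, at 0.51. None of the candidates came very close to socs3a, whose difference between both compounds and neomycin, 2.61, exceeded those of these 4 neighbours, which ran from 1.52 to 2.33. Nearest to socs3b was acsl4b at 0.20, followed by btg2, a growth arrest gene, at 0.27, rrad, a small GTPase, at 0.31 and junbb, a Jun protein of AP-1, at 0.31. Both socs3 copies thus had acsl4b among their 5. Nearest to socs1a was rgs2, a regulator of G protein signalling, at 0.17, followed by gadd45bb, a stress gene, and cremb, a cyclic AMP responsive factor, both at 0.21, bzw1b at 0.21 and cebpa, a transcription factor, at 0.22. Nearest to stat3 was foxj1a, a transcription factor of motile cilia, at 0.15, followed by nrg1, a growth factor for ErbB receptors, at 0.15, klf12a at 0.15, cebpd, a transcription factor, at 0.17 and hmgcs1, an enzyme of sterol synthesis, at 0.17. The likeness was computed over 9 arrays in 3 groups, without a test.

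The other genes of the pathway were taken from 7 lists, each gene by its brightest probe, with the 4 genes left out. Of 161 genes listed, 98 were tested. The lists were drawn up with earlier results of these data known. The counts, calls and p-values of their genes below are therefore a description and no independent support. Against neomycin, 13 of the 98 were called higher with both compounds, where 1.92% of the 11326 genes tested were, and 1 was called lower, where 0.848% were. Against control, 24 were called higher with both compounds, where 3.37% of genes were, and 2 lower, where 2.29% were. With neomycin alone, 3 were called higher than in control, where 0.115% of genes were, and none lower, where 0.0441% were. The median log2 difference of the 98 was 0.23, 0.35 and 0.12 in the same 3 comparisons, beside -0.03, -0.05 and -0.01 over all genes. Most of the called genes were in the list of genes known as STAT3 targets in mammals. With the normal-exponential background correction, 2, 7 and 0 of the pathway genes were called in these comparisons, in either direction.

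Among the ligands, the 2 leptin genes, which encode hormones that signal through JAK2 and STAT3 in mammals, had the largest differences. The levels of lepa were 1.1, 0.65 and 0.73 with both compounds, -3.52, -4.64 and -4.30 with neomycin, and -4.29, -4.62 and -4.37 in controls. The gene rose by 4.98 ± 0.27 (SE) against neomycin, a fold of 31.6 (limma adjusted p = 0.000165), and by 5.25 ± 0.27 against control (limma adjusted p = 4.42e-05), and neomycin exceeded control by 0.27 ± 0.27 (limma adjusted p = 0.868). Both leptin genes were listed with earlier results of these data known, so their p-values are no independent support. The levels of the copy lepb were -0.46, -1.16 and -1.10 with both compounds, -4.39, -5.94 and -7.32 with neomycin, and -6.72, -5.69 and -7.00 in controls. It was well above background on all 3 arrays of both compounds, on 1 of 3 neomycin arrays and on no control array, so it entered the test through the group in which it was high, and its calls are no independent support. Against control it was at least 31.4-fold higher (limma adjusted p = 0.00211), and no fold is given against neomycin. With the normal-exponential background correction before the 75th percentile scaling, neither leptin gene was called. The differences then were 2.43 against neomycin and 1.68 against control for lepa (limma adjusted p = 0.0694 and 0.121), and 1.16 and 0.37 for lepb (limma adjusted p = 1 and 0.431). The third ligand called against control was crlf1a, a secreted partner of a cytokine of the interleukin 6 family, at 1.77 ± 0.26 (limma adjusted p = 0.00748). This call, too, was lost with that background correction and scaling. The gene crlf1a was not called against neomycin, nor between neomycin and control. The other 9 of the 12 ligands tested were not called in any comparison.

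Of 19 receptors tested, il13ra1, a subunit of receptors for interleukins 4 and 13, was called. It rose by 1.06 ± 0.22 (SE) against neomycin (limma adjusted p = 0.0404) and by 1.69 ± 0.22 against control (limma adjusted p = 0.00328). The call against neomycin was lost with the slide as a block (limma adjusted p = 0.0708) and without any 1 array of both compounds, the second or the third neomycin array or the third control array (limma adjusted p up to 0.142). The call against control held without any 1 array. It was lost with the normal-exponential background correction before the 75th percentile scaling. Over the 11 alternatives other than leaving out 1 array, the difference from control ran from -0.22 to 1.76, with 10 calls. The gene il6st, which encodes the gp130 subunit shared by receptors of the interleukin 6 family, was dim but separate: its levels were -3.80, -4.10 and -3.46 with both compounds, -4.67, -4.62 and -4.86 with neomycin, and -4.86, -4.34 and -4.34 in controls. Its difference was 0.93 ± 0.21 against neomycin (limma adjusted p = 0.0524) and 0.73 ± 0.21 against control (limma adjusted p = 0.0745), and neither passed. Over the 9 alternatives that hold it, other than leaving out 1 array, it ran from -0.01 to 1.06 against neomycin, with 3 calls. Against control it ran from -0.81 to 0.81, with 1 call. Of the 3 JAK kinases tested none was called in any comparison by limma, and 1 had an unadjusted p under 0.05 in each comparison with larvae given both compounds. That gene was jak1, at 0.69 ± 0.18 against neomycin (limma adjusted p = 0.0822) and 0.55 ± 0.18 against control (limma adjusted p = 0.109). The difference of jak2a was -0.00 ± 0.17 against neomycin (limma adjusted p = 0.996) and -0.15 ± 0.17 against control (limma adjusted p = 0.658).

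By its brightest probe, no other tested member of the STAT and SOCS families rose as far as any of the 4 genes with both compounds, but some fell. The 4 genes were picked for their rise with both compounds. That they exceed their relatives is therefore a description and no result about the families. None of the 6 other STAT genes tested, stat1a, stat1b, stat4, stat5a, stat5b and stat6, was called by limma in any comparison, and 1 had an unadjusted p under 0.05 in each. Their differences between both compounds and neomycin ran from -1.14 to 0.08 with a median of -0.10, and between both compounds and control from -0.59 to 0.01 with a median of -0.23. None of these STAT values reached the rise of 1.01 or 1.20 of the brightest stat3 probe, though the value of -1.14 was larger in size than 1.01. Of the 6 other SOCS family genes tested, none was called against neomycin by limma, with 3 at an unadjusted p under 0.05, and the median difference was 0.44. Against control, cisha, which encodes a brake on STAT5 in mammals, rose by 1.01 ± 0.22 (SE; limma adjusted p = 0.0328), on all 5 of its probes, and the call was lost without any 1 control array, the third neomycin array or the first or the third array of both compounds (limma adjusted p up to 0.101). The call was also lost without the probe filter, with only the 6 arrays compared and with the normal-exponential background correction before the 75th percentile scaling. The levels of cisha were 2.16, 1.26 and 1.82 with both compounds, 1.27, 1.08 and 1.09 with neomycin, and 0.71, 0.93 and 0.59 in controls, so neomycin lay between the other groups. Also against control, socs5b fell by 1.43 ± 0.25 (limma adjusted p = 0.0140), on a dim probe that was well above background on 1 of 3 arrays of both compounds and 2 of 3 control arrays. Its call was lost without the third array of both compounds (limma adjusted p = 0.0511). It was also lost with the normal-exponential background correction under either scaling. Over the 9 alternatives that hold it, other than leaving out 1 array, the difference ran from -1.47 to -0.08, with 7 calls. The gene socs2, a brake on growth hormone signals, was well above background on 2 of 3 arrays of both compounds and on no control array, with a difference of 0.63 ± 0.28 that did not pass (limma adjusted p = 0.232). Among 14 other brakes and partners, ptpn1, a phosphatase that acts on JAK2 in mammals, rose by 0.88 ± 0.13 against control (limma adjusted p = 0.00782), and its difference from neomycin was 0.58 ± 0.13 (limma adjusted p = 0.0594). The call of ptpn1 against control was lost with the normal-exponential background correction before the 75th percentile scaling.

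Of 39 genes known as STAT3 targets in mammals, 10 were called higher with both compounds than with neomycin and 1 lower. Of all genes tested, 1.92% and 0.848% were. Compared with control, 18 of the 39 were called higher and 1 lower, where 3.37% and 2.29% of all genes tested were. This list, too, was drawn up with earlier results of these data known. The median log2 difference of the list was 0.68 against neomycin and 0.95 against control. Many of these genes also answer to other signals, and AP-1 genes are among them. By smallest p against neomycin, jdp2b rose by 2.12 ± 0.17 (SE; limma adjusted p = 0.00113), fosab, the zebrafish c-Fos, by 2.03 ± 0.21 (limma adjusted p = 0.00244), nfil3-6, a bZIP repressor, by 1.56 ± 0.17 (limma adjusted p = 0.00284) and klf6a, a zinc finger factor, by 1.33 ± 0.15 (limma adjusted p = 0.0039). With the normal-exponential background correction before the 75th percentile scaling, the calls of nfil3-6 and klf6a were lost and those of jdp2b and fosab held. Against control the leading genes were fosab at 4.43 ± 0.21 (limma adjusted p = 2.79e-05), jdp2b at 3.29 ± 0.17 (limma adjusted p = 4.67e-05), mmp9 at 2.90 ± 0.19 (limma adjusted p = 0.000168) and junbb at 2.61 ± 0.17 (limma adjusted p = 0.000177). The gene called lower in both was irf1a, an interferon regulatory factor chosen here after its values were seen, which fell by 1.15 ± 0.19 against neomycin (limma adjusted p = 0.0202) and by 0.85 ± 0.19 against control (limma adjusted p = 0.0385). Its call against neomycin was lost without the first or the second neomycin array or the first or the third array of both compounds (limma adjusted p up to 0.0855), and its call against control held only without the first control array or the first neomycin array (limma adjusted p up to 0.118 without another array). With the normal-exponential background correction before the 75th percentile scaling it was called in neither comparison (limma adjusted p = 1 against neomycin and 0.121 against control). Over the 11 alternatives other than leaving out 1 array, it was called in 8 against neomycin and in 4 against control. In the comparison of neomycin alone with control, where 0.115% of all genes tested were called higher, 3 of the 39 rose. They were fosab by 2.39 ± 0.21 (limma adjusted p = 0.0068), mmp9 by 1.39 ± 0.19 (limma adjusted p = 0.042) and junbb by 1.29 ± 0.17 (limma adjusted p = 0.042). Of the 5 probes of fosab tested, 3 were called higher. The call of its brightest probe held without any 1 array, but was lost with the normal-exponential background correction before the 75th percentile scaling. That of mmp9 was lost without any 1 control or neomycin array or the third array of both compounds (limma adjusted p up to 0.16), and with the slide as a block (limma adjusted p = 0.0686). That of junbb held only without the first array of both compounds, and reached a limma adjusted p of 0.16 without the second neomycin array.

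**Figure D4:**
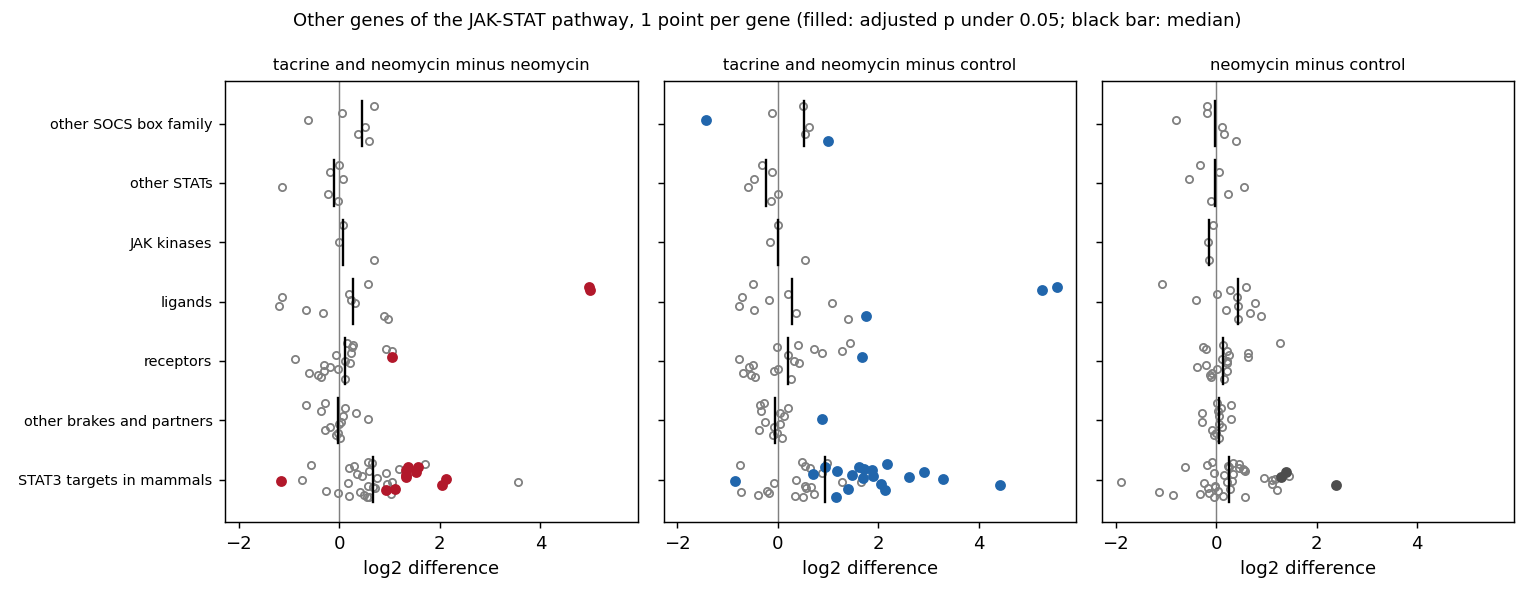
Log2 differences of the 98 other pathway genes, 1 point per gene by its brightest probe, in rows by list and columns by comparison; filled points passed the threshold of 0.05 for the adjusted p, open points did not, and black bars are list medians. The 2 leptin genes stand near 5 in both comparisons with larvae given both compounds, the other STATs and the JAK kinases have no filled point, and the list of mammalian STAT3 targets holds most of the filled points. Most neomycin arrays and all control arrays held lepb not well above background, so its place is not a measured fold.

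Markers of leukocytes, cells in which these genes are also expressed, were read beside the 4 genes. No marker of neutrophils, macrophages or all leukocytes was called by limma in any comparison, with 8 markers tested, and 1 macrophage marker against neomycin and 1 neutrophil marker against control had an unadjusted p under 0.05, both lower with both compounds. As sums of levels relative to the 75th percentile on a linear scale, the 3 pan-leukocyte markers ranged from 8.45 to 11.6 with both compounds, from 8.26 to 13.3 with neomycin and from 7.64 to 12.6 in controls. The 3 neutrophil markers ranged from 5.58 to 9.60 with both compounds, from 5.75 to 12.0 with neomycin and from 8.66 to 14.5 in controls. The 2 macrophage markers ranged from 2.63 to 6.09 with both compounds, from 2.95 to 8.58 with neomycin and from 3.67 to 5.36 in controls. In all 3 lists the groups overlapped, and in none did larvae given both compounds hold the highest value. Some markers of other tissues did move. The 5 markers of skeletal muscle summed to between 830 and 1043 with both compounds, 885 and 1132 with neomycin and 1125 and 1395 in controls. None of them was called in any comparison. The 4 markers of exocrine pancreas summed to between 444 and 502 with both compounds, 539 and 601 with neomycin and 666 and 824 in controls. Of the 4, 2 were called lower with both compounds than in control, where 2.29% of all genes tested were. The 3 markers of neuromast and hair cells summed to between 21.7 and 25.9 with both compounds, 21.3 and 24.4 with neomycin and 31.8 and 55.9 in controls, with 1 called lower with both compounds than in control. The brightest probe weighs most in each sum, and here that was pvalb8, the marker called, at a log2 difference of -0.82 between both compounds and control (limma adjusted p = 0.0364). The other markers were s100t at -0.87 (limma adjusted p = 0.183) and atoh1a at 0.18 (limma adjusted p = 0.56), neither called. Against neomycin, 1 red cell marker and 1 photoreceptor marker were called higher with both compounds. Of all 37 markers tested, these 2 were called higher and none lower, where 1.92% and 0.848% of all genes tested were. Against control, 3 of the 37 were called lower and none higher, where 2.29% and 3.37% of all genes tested were. Most of the 37 markers lay below control, called or not. With both compounds 9 were above control, at a median log2 difference of -0.28, where the median of all genes was -0.05. With neomycin 6 were above control, at a median of -0.23, where that of all genes was -0.01. Between both compounds and neomycin 17 were above 0, at a median of -0.04, beside -0.03 for all genes. The red cell marker, slc4a1a, and pvalb8 were each called on 1 of their 2 probes tested. The part of these tissue markers in the values of the 4 genes was not tested.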

How the data were processed

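RNA of 9 samples was measured, 3 each of larvae given tacrine and neomycin, larvae given neomycin and control larvae. Per the file headers, the deposited scanner files (1 per array) hold intensity values that are not logged. Feature Extraction (version 10.1.1.1 in the headers, 8.0 in the submitters' processing notes) had subtracted background to give the processed signal, and median signals of spots and background stand beside it. Quality columns in another unit (0 or 1) are deposited beside them. A further deposited matrix holds log2 values for 25265 probes, 8 of the 10 probes among them; how it was made is not given in the sources used here, and it served as an alternative only.

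Spots of 1 probe were averaged as log2 processed signal, without outlier spots (21 probe values are missing), and the 75th percentile of each array over non-control probes was subtracted. Probes were named by RefSeq accession through the GRCz12tu gene table (25173 named, 18430 not). The model took all 9 arrays together (lmFit and eBayes of limma 3.58.1, two-sided, under R 4.3.3), with Benjamini-Hochberg adjustment over the 31672 tested probes and a threshold of 0.05; the steps were tested on simulated data. The number of arrays limits the precision. Replicates are independent experiments per the labels. Slide number and replicate number coincide. Same-numbered arrays deviated together in most pairs but not throughout (correlations of -0.08 to 0.26, beside -0.30 to 0.13 between arrays of different number). Most correlations between same-numbered arrays were above 0, and most between arrays of different number were below 0. Each probe was centred within its group before this, so values above 0 for same-numbered arrays bring values below 0 for the others. The latter are no separate observation. The numbers were not taken to pair the samples, and the slide as a block is an alternative. The 4 genes, the pathway lists and the markers were chosen with earlier results of these data known. Other pathway genes were named by rule: up to 4 called genes with the smallest p per list and comparison, and jak1, jak2a, il6st, lepa, lepb, socs2 and cisha throughout. The gene irf1a was added outside this rule, after its values were seen. One gene that the likeness rule picks is not reported here. Alternatives changed background correction, scaling, probe filter, source of values, block, variance model, array weights and the arrays in the fit, and left out each array in turn.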

Additional observations from a re-analysis of the deposited data

How the results depend on the processing

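On their brightest probes the 4 genes kept their direction in all 3 comparisons under all 20 alternatives. Of the 240 values that this gives, 13 no longer passed the threshold, 4 newly passed it and 223 did neither. The genes were picked on the comparisons with both compounds, so directions and calls kept there are a description only. Normexp, the normal-exponential background correction with an offset of 50, moved most. With it and scaling to the 75th percentile, the median of all probes was -0.08 between both compounds and neomycin, -0.41 between both compounds and control and -0.35 between neomycin and control. The probes of the 4 genes called higher then were 1 of 10 against neomycin and 3 of 10 against control. Not called on the brightest probes were socs1a (1.35 against neomycin and 1.53 against control), socs3b (1.80 against neomycin) and stat3 (0.86 against neomycin and 1.24 against control). All probes called were then 12, 66 and 0 in the order of comparisons just given, beside 846, 1875 and 37 in the main analysis, and pathway genes called were 2, 7 and 0, beside 14, 26 and 3. With normexp and quantile normalization, 524, 1097 and 7 probes were called, 9 of 10 probes of the 4 genes were called higher in each comparison with both compounds, and 1 pathway gene was called between neomycin and control. The cause of these changes was not tested.

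Between neomycin and control, socs3a passed after quantile normalization (1.11), with probes well above background on all 9 arrays (1.102), with an intensity trend (1.102) and without the third neomycin array (1.25, the highest of the fits without 1 array; the lowest was 0.98). In each of these, 1 of the 10 probes was called, and without any 1 array the number was 0 to 1. All probes called in that comparison were 20 with no filter, 73 with the filter on all 9 arrays, 18 in the authors' matrix, 22 with the slide as a replicate block, 73 with the trend, 86 with array weights and 11 to 65 without any 1 array. Pathway genes called there were 1 with median scaling, 1 with no filter, 5 with the filter on all 9 arrays, 5 with the trend, 5 with array weights and 1 to 3 without any 1 array.

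Between both compounds and neomycin, 496 probes were called with no filter, 2330 with array weights and 272 to 976 without any 1 array. Probes of the 4 genes called higher were 5 to 10 without any 1 array, pathway genes called were 23 with the trend and 36 with array weights, socs1a was 1.37 to 1.82 and stat3 0.90 to 1.07 without any 1 array. Between both compounds and control, 3003 probes were called with array weights, 1232 with only the 6 arrays compared and 787 to 1847 without any 1 array. The replicate block left all 10 probes called in both comparisons with both compounds and changed no call of the 4 genes. Since those comparisons served to pick the genes, the kept calls are a description and add no support. Of the pathway genes named, il13ra1 (both compounds against neomycin), irf1a (both compounds against control, limma adjusted p = 0.0545) and mmp9 (neomycin against control) lost their calls. The gene jdp2b (neomycin against control) newly passed. Brightness over background limits the dimmest probes of socs3b and stat3, which the authors' matrix does not hold.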
